A study of Sus scrofa with 17 samples.

Results

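Nuclear-encoded subunits of the mitochondrial respiratory chain were examined in the longissimus muscle of weaned piglets. The members were a list of 57 pig gene symbols for subunits of complexes I to V, chosen by name with earlier results of these data known. Of these, 52 had a row among the 31908 genes of the deposited counts. For 46 members the gene ID carried the symbol and for 6 (NDUFA1, NDUFA12, NDUFB3, NDUFS7, COX6B1 and ATP5F1B) the row was named by its position. No row could be assigned to NDUFA13, UQCRB, UQCRH, COX6C or COX8C, which were not analysed here. Of the rows found, 25 belong to complex I, 4 to complex II, 5 to complex III, 9 to complex IV and 9 to complex V.

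The piglets were Large White × Duroc males that were 28 days old when they entered a metabolic trial, were adapted for 5 days, and were then pair-fed the diets for 2 weeks in individual cages. The 6 control piglets received a wheat, maize and soybean meal diet. The 6 UL piglets received a diet in which 7% Ulva lactuca, a green seaweed, replaced part of the control diet, and the 5 ULU piglets received the UL diet with 0.01% ulvan lyase, an enzyme that cuts ulvan, a cell wall polysaccharide of the seaweed. Each library came from 1 piglet, whole muscle was sequenced as single 75 nt reads, and the number after a diet's name below is that piglet's number. In such bulk samples, fewer fibres of a type and less RNA per fibre cannot be told apart.

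The respiratory chain sits in the inner mitochondrial membrane. Complexes I and II pass electrons from NADH and succinate to ubiquinone, complex III passes them on to cytochrome c, complex IV reduces oxygen, and complex V uses the resulting proton gradient to make ATP. A few subunits of complexes I, III, IV and V are encoded by the mitochondrial DNA, and the remaining subunits, with all of complex II, by nuclear genes. Several subunits of complex IV exist in forms specific to striated muscle, and slow fibres generally hold more mitochondria than fast fibres.

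The libraries held 16137365 to 26546810 counted reads. Values are CPM, counts relative to library size, scaled with edgeR's TMM factors, which ranged from 0.765 in ULU 43 to 1.22 in control 22. Contractile genes marked the samples as striated muscle: the 8 fast fibre genes with a row summed to between 25007 and 62379 CPM in every library, and the 7 slow fibre genes to between 3407 and 12914 CPM. Within control, the members split the libraries: in control 21, 23 and 25, 45, 40 and 47 of the 49 tested members lay above their control mean on the log2 scale, against 2, 3 and 4 members in control 22, 24 and 26. The TMM factors that divide these values split the same way, 0.944, 1.01 and 0.948 in control 21, 23 and 25 and 1.22, 1.08 and 1.18 in control 22, 24 and 26. The 8 fast fibre genes summed to 47029, 34038 and 43443 CPM in control 21, 23 and 25 and to 25007, 33731 and 29228 CPM in control 22, 24 and 26. The parts of scaling and of fibre content in the members' spread were not tested. The plot of members by library shows this split as columns of one colour that cross all 5 complexes.

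**Figure D1:**
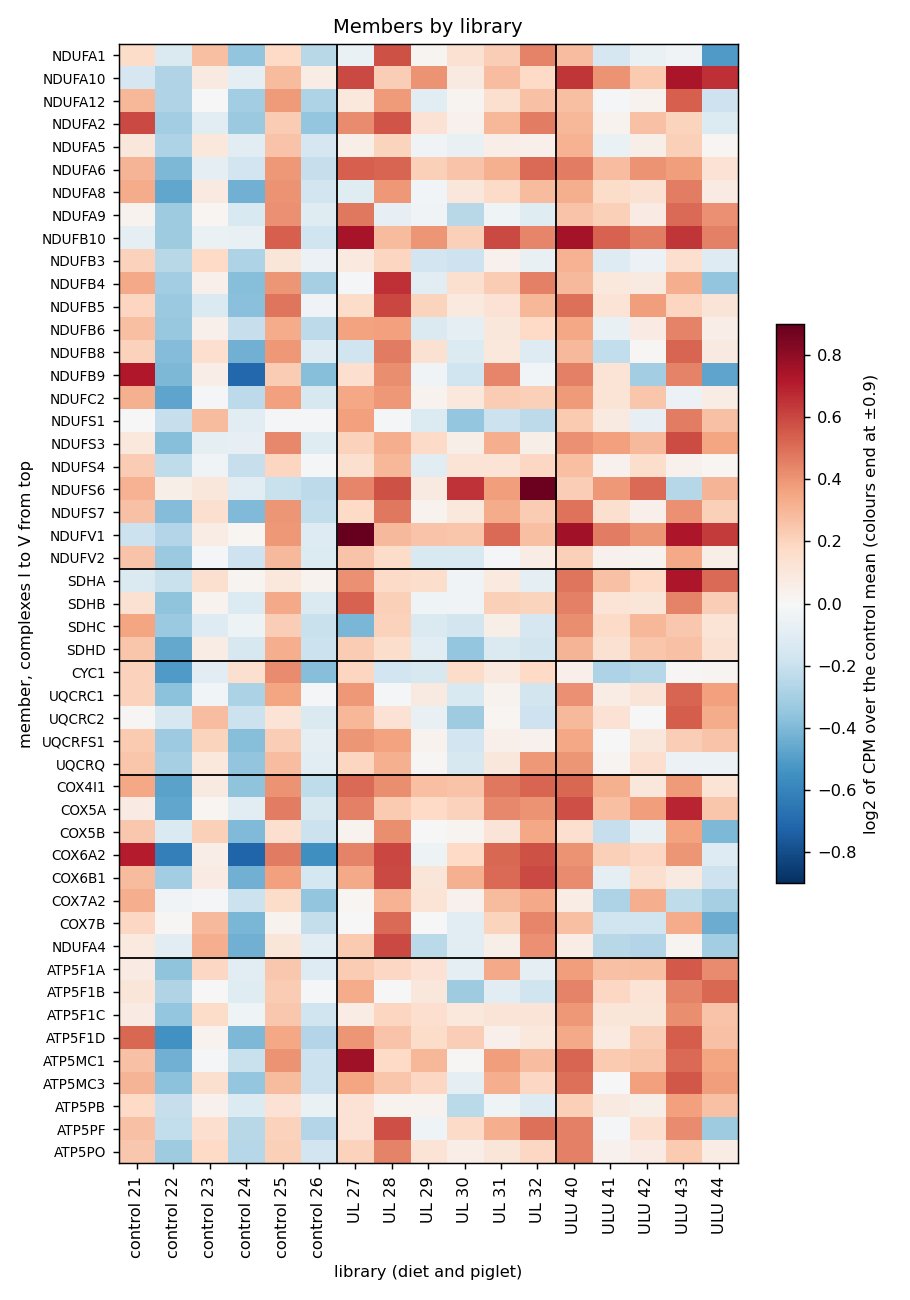
Each row is a tested member, grouped from complex I at the top to complex V at the bottom, each column is a library, and the colour is the log2 of its CPM over the member's mean CPM in control. Control 22, 24 and 26 are blue in nearly every row, and all 49 members of ULU 40 lie above the control mean.

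The other 3 members with a row were too low for a test. NDUFB7 had 0 reads in all 17 libraries, and its annotated exons are 100% shared with another gene. NDUFS8 had 2 to 12 reads per library with 70.9% of its exon bases shared, and COX7A1, the heart and skeletal muscle form of the COX7A subunit, had 1 to 10 reads with 94.4% shared. Reads on bases shared by several genes were counted for no gene, so these rows give no measure of how much of these transcripts the muscle held. The same limit holds in part for 6 tested members with over 50% of their exon bases shared, NDUFA1, NDUFA12, NDUFC2, NDUFV1, COX4I1 and COX6B1. The 49 tested members had between 175 reads (NDUFS6) and 81014 reads (ATP5F1B) per library, and the detection limit of 3 reads equalled 0.13 to 0.195 CPM. This limit covers counting error only.

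Levels were compared between members only as CPM per kb of annotated exon, averaged over all 17 libraries, for the 43 tested members with at most 50% of their exon bases shared. The highest was NDUFA4, a small subunit first assigned to complex I and now counted with complex IV, at 1587 CPM per kb. It was followed by the catalytic beta subunit of ATP synthase, ATP5F1B, at 1372 CPM per kb. The lowest was NDUFS6, an accessory subunit of the peripheral arm of complex I, at 14.7 CPM per kb, while NDUFB4, an accessory subunit of the membrane arm, was the highest of complex I at 470 CPM per kb. The median per kb was 323 in complex IV (6 members), 184 in complex V (9), 149 in complex III (5), 95.3 in complex I (19) and 90.5 in complex II (4). Within complex II the order ran from SDHD, a membrane anchor, at 291 CPM per kb to SDHC, the other anchor, at 26.9. Within complex III it ran from UQCRQ, a small membrane subunit, at 595 to CYC1, cytochrome c1, at 69.2, while the lowest of complex IV was COX7A2 at 198, and the lowest of complex V was ATP5MC3, a form of the ring subunit c, at 30.1. Some annotated exon models reach far beyond the gene, so these values can understate a level: ATP5F1A, the alpha subunit, had 2000 CPM in the mean of the libraries but 135 CPM per kb over 14834 annotated exon bases, and 14.5% of its unshared exon bases lay inside the RefSeq gene. For ATP5MC3, with 248 CPM over 8237 annotated exon bases, that share was 10.7%, so its place as the lowest of complex V is uncertain. In complex II the share was 33.7% for SDHA and 83.7% for SDHB, and in complex I 25.9% for NDUFS4 and 100% for NDUFB10. The order of the medians of complexes I and II is therefore uncertain too.

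ULU vs control addresses the diet with seaweed and enzyme against no seaweed. In this comparison 4 members passed an adjusted p-value of 0.05 (edgeR's quasi-likelihood test in 1 model of all libraries, Benjamini-Hochberg adjusted over 14203 genes), and all 4 were higher in ULU. They were NDUFA10, NDUFV1 and NDUFB10 of complex I and SDHA of complex II. Over all genes tested, 423 passed (2.98%), 282 of them higher in ULU (1.99%), against 4 of the 49 members. No member reached a log2(fold change) of 1 in either direction. At an unadjusted p under 0.05 there were 16 members, all higher in ULU, beside 2678 of all genes tested, 1431 of them higher. The estimates of 43 members were above 0 and those of 6 below, with a median of 0.22 on the log2 scale, beside a median of -0.03 over all genes tested, of which 47.0% were above 0. The TMM factors ran from 0.944 to 1.22 in control and from 0.765 to 1.035 in ULU. With edgeR's RLE and upper quartile factors instead, the median over the members was 0.23 and 0.20. The part of scaling in this median was not tested.

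NDUFA10, an accessory subunit of the membrane arm of complex I (ENSSSCG00000016349, Sscrofa11.1 chromosome 15, 138999174 to 139031897, minus strand), had 125, 106, 93.9, 133 and 126 CPM in ULU 40 to 44. The control libraries ran from 66.1 over a median of 79.6 to 97.1 CPM, and the UL libraries from 84.2 over 94.9 to 121 CPM. All ULU libraries lay above the control mean, and only ULU 42 lay below the highest control library, control 25. The log2(fold change) was 0.55 ± 0.12 (SE), with an adjusted p of 0.0232, and a two-sided exact permutation test of the log2 CPM gave p = 0.00649.

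NDUFV1, the core subunit that binds NADH and the flavin at the entry of complex I (ENSSSCG00000012896, chromosome 2, 4958508 to 4964208, minus strand), had 44.5, 36.1, 34.6, 43.6 and 40.6 CPM in ULU 40 to 44. Control ran from 21.9 over 25.4 to 34.5 CPM, and UL from 31.3 over a median of 32.0 to 49.7 CPM. The ULU and control libraries did not overlap, although the lowest ULU and the highest control library were nearly level. The log2(fold change) was 0.60 ± 0.14 (SE), with an adjusted p of 0.0295 (exact permutation p = 0.00433), and 59.1% of its exon bases are shared with other genes.

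NDUFB10, an accessory subunit of the membrane arm (ENSSSCG00000030328, chromosome 3, 40003109 to 40005589, minus strand), had 204, 175, 167, 190 and 166 CPM in ULU 40 to 44. Control ran from 97.3 over 115 to 177 CPM and UL from 141 over 163 to 203 CPM. Control 25 stood apart at 177 CPM and lay inside the ULU range, while the next control library had 117 CPM, below every ULU and UL library. The log2(fold change) was 0.57 ± 0.14 (SE), with an adjusted p of 0.0326 (exact permutation p = 0.0108).

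SDHA, the flavoprotein subunit of succinate dehydrogenase (ENSSSCG00000020686, chromosome 16, 79834044 to 79862495, minus strand), had 345, 297, 279, 409.5 and 352 CPM in ULU 40 to 44. Control ran from 215 over 252 to 273 CPM and UL from 233 over 269 to 329 CPM. Every ULU library lay above every control library, and UL overlapped both. The log2(fold change) was 0.45 ± 0.11 (SE), with an adjusted p of 0.0423 (exact permutation p = 0.00216).

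**Figure D2:**
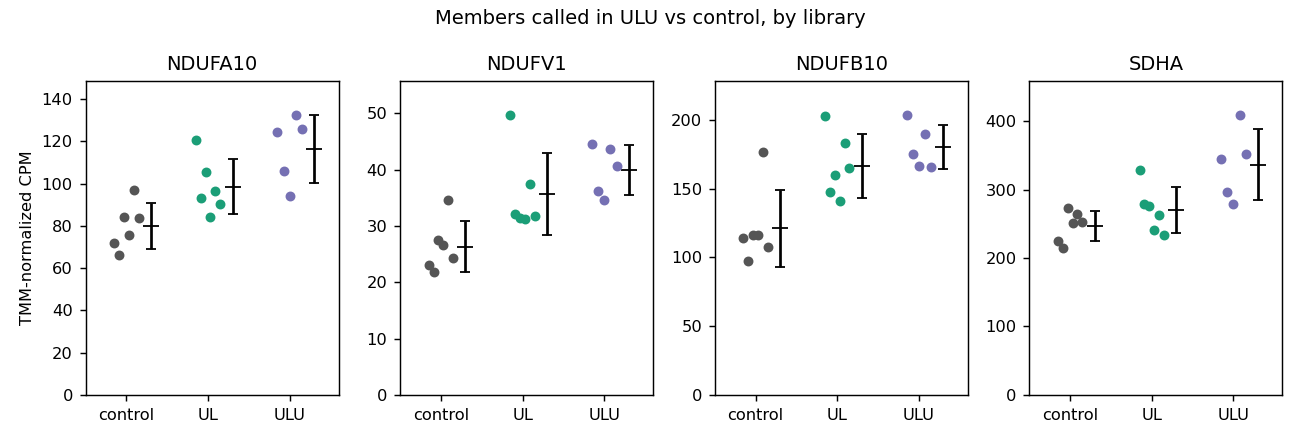
TMM-normalized CPM of NDUFA10, NDUFV1, NDUFB10 and SDHA, with a point for each library, and the mean ± SD beside each diet's points. The ULU points of NDUFV1 and SDHA lie above all control points, and control 25 is the single high control point of NDUFB10 at 177 CPM.

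The side of the threshold depended on single libraries, while the estimates stayed near their values. In the 17 fits that left out 1 library each, the log2(fold change) lay between 0.49 and 0.62 for NDUFA10, 0.56 and 0.69 for NDUFV1, 0.52 and 0.71 for NDUFB10 and 0.36 and 0.51 for SDHA. NDUFA10 passed in 14 of these fits, NDUFV1 and NDUFB10 in 10 each and SDHA in 5. Without control 22, without ULU 40 and without ULU 43, 0 of the 49 members passed. Without control 23, 24 or 26, 1 member passed in each case, without ULU 41 or 44, 2 members passed, and without control 25, 8 members passed. The numbers over all genes in these fits are not given here, so the shifts cannot be read as particular to the members. With the share of each library's trimmed reads that was counted on genes as a covariate, 0 members passed, where 6 of all 14203 genes did, and the 4 estimates stayed between 0.41 and 0.58 on the log2 scale. In that fit the median over the 49 members was 0.15, against 0.22 without the covariate.

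Of the 49 members, 3 had ULU libraries that all lay above the control libraries, NDUFV1, SDHA and ATP5F1A, and none lay all below, where 2.3% of all genes tested lay all above. ATP5F1A had 2312, 2140, 2147, 2612 and 2399 CPM in ULU 40 to 44, against 1390 over 1766 to 2108 CPM in control. Its log2(fold change) of 0.38 ± 0.12 (SE) had an adjusted p of 0.0884 and did not pass.

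By complex, the smallest p-values in ULU vs control that did not pass belonged to COX5A in complex IV, ATP5F1A in complex V and UQCRC1 in complex III. COX5A, a matrix-side subunit of complex IV, averaged 673 ± 91.2 CPM (SD, n = 5) in ULU and 495 ± 107 CPM (SD, n = 6) in control, with a log2(fold change) of 0.44 ± 0.14 (SE) and an adjusted p of 0.0773. UQCRC1, a core protein of complex III, averaged 385 ± 51.8 CPM (SD, n = 5) and 311 ± 59.5 CPM (SD, n = 6), with a log2(fold change) of 0.31 ± 0.14 (SE) and an adjusted p of 0.228. All 9 tested members of complex V and all 4 of complex II had estimates above 0, as did 22 of 23 in complex I and 4 of 5 in complex III. Complex IV was divided, with 4 of 8 above 0 and a median of 0.04. The medians were 0.18 in complex I, 0.27 in complex II, 0.19 in complex III and 0.30 in complex V. Among the 5 tested core subunits of complex I (NDUFS1, NDUFS3, NDUFS7, NDUFV1 and NDUFV2) the median was 0.27, and among its 18 accessory subunits 0.16.

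UL vs control addresses the seaweed without the enzyme. None of the 49 members passed, and of all 14203 genes 0 passed (0.0%) with edgeR. At an unadjusted p under 0.05 there were 10 members, all higher in UL, beside 1541 of all genes tested, 829 of them higher. DESeq2 called 162 genes on the libraries of these diets alone and 173 on all libraries, among them 1 and 2 members. The estimates of 42 members were above 0, with a median of 0.19 beside 0.00 over all genes tested. No member had UL libraries that all lay above the control libraries, where 0.493% of all genes tested did.

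NDUFB10 had the smallest p-value among complex I members in this comparison, with a log2(fold change) of 0.46 ± 0.13 (SE) and an adjusted p of 0.199. NDUFS6, a low-level member, had the largest estimate, 0.52 ± 0.15 (SE), with 10.3 ± 1.52 CPM (SD) over the control and 14.8 ± 2.74 CPM over the UL libraries, 6 each, with an adjusted p of 0.199. The libraries of both overlapped between the diets. In complex IV all 8 tested members had estimates above 0, with a median of 0.26. COX4I1, the common form of a regulatory subunit, averaged 75.6 ± 19.5 CPM (SD) over the control and 101 ± 8.13 CPM over the UL libraries, 6 each, with a log2(fold change) of 0.41 ± 0.14 (SE) and an adjusted p of 0.294. Complex V was led by ATP5MC1, a form of the ring subunit c, with 0.34 ± 0.14 (SE) and an adjusted p of 0.407. SDHB, the iron-sulfur subunit of complex II, had 0.19 ± 0.12 (SE) and an adjusted p of 0.613, and UQCRQ of complex III had 0.16 ± 0.13 (SE) and an adjusted p of 0.715. UL vs control and ULU vs control share their control libraries.

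**Figure D3:**
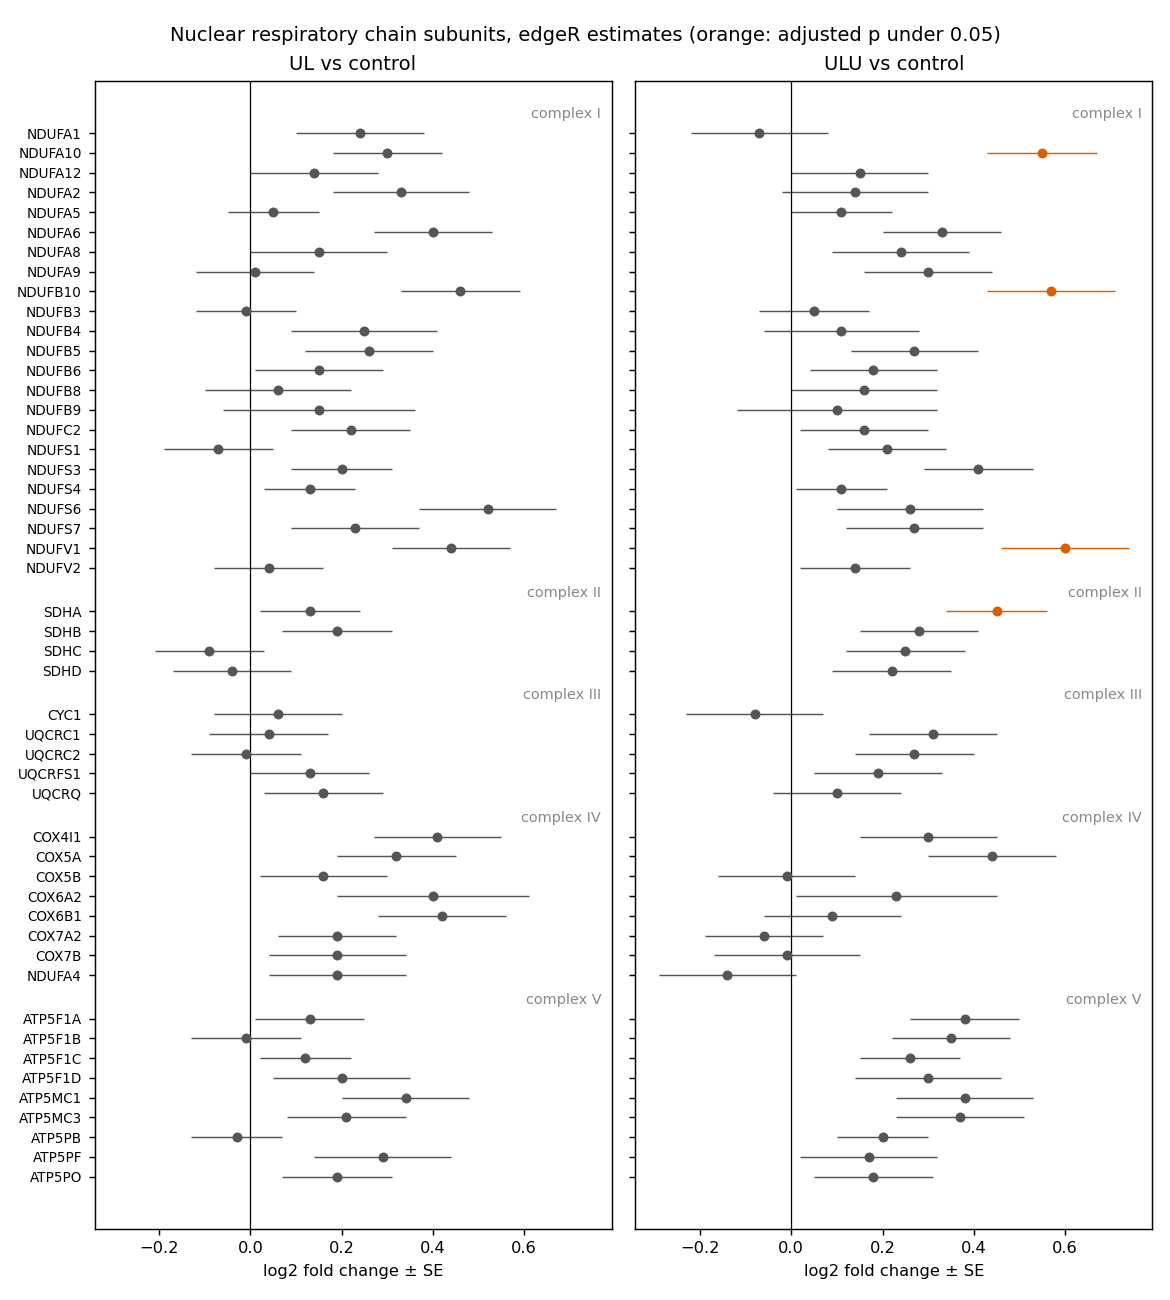
log2(fold change) ± SE of the 49 tested members for UL and for ULU against control, ordered by complex, with the members at an adjusted p under 0.05 in orange. The 4 orange points all lie in the ULU vs control panel, where the complex V points lie to the right of 0 and the complex IV points lie on both sides of it.

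ULU vs UL addresses the enzyme. None of the 49 members passed with edgeR, where 5 of all genes tested did (0.0352%). DESeq2 called 245 genes on the libraries of these diets alone and 223 on all libraries, with no member among them. At an unadjusted p under 0.05 with edgeR there were 9 members, 7 higher and 2 lower in ULU, beside 1540 of all 14203 genes, 875 of them higher. No member had ULU libraries that all lay above the UL libraries, where 1.09% of all genes tested did. Complex IV and complex II had estimates of unlike sign: 7 of 8 complex IV members were below 0, with a median of -0.19, and all 4 complex II members above 0, with a median of 0.29. The tested complex IV members had 535 to 1751 annotated exon bases and the complex II members 1541 to 8498. In this comparison the signs also differed between shorter and longer members (last paragraph), and the parts of complex and length were not tested. The 7 higher members were, from the smallest p-value on, ATP5F1B, SDHA, SDHC, ATP5PB, UQCRC2, NDUFS1 and NDUFA9, and the 2 lower members COX6B1 and NDUFA4. ATP5F1B, which had the smallest p-value, averaged 3320 ± 395.5 CPM (SD, n = 5) in ULU and 2583 ± 421 CPM (SD, n = 6) in UL, at a log2(fold change) of 0.36 ± 0.13 (SE) and an adjusted p of 0.32. NDUFA4, with the larger p-value of the 2 lower members, averaged 873 ± 110 CPM (SD, n = 5) in ULU and 1095 ± 241 CPM (SD, n = 6) in UL, at -0.33 ± 0.16 (SE) and an adjusted p of 0.459. These last members were chosen after their values were seen.

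Summed over its members, complex V held the most CPM, 7119 ± 988 (SD) over 6 control libraries, 7606 ± 724 over 6 UL libraries and 8884 ± 838 over 5 ULU libraries. The ULU libraries of complex V ran from 7985 to 9773 CPM and the control libraries from 5752 to 8373 CPM, so they overlapped. Complex I summed to 4138 ± 720, 4546 ± 419 and 4740 ± 494 CPM in control, UL and ULU. Complex II summed to 1216 ± 186, 1259 ± 138 and 1487 ± 119 CPM, and complex III to 1762 ± 293, 1878 ± 224 and 2022 ± 186 CPM, in the same order. Complex IV differed in order, with 3142 ± 568 CPM in control, 3743 ± 526 in UL and 3301 ± 494 in ULU. No complex had diets whose libraries did not overlap, and the sums are a description without a test.

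For subunits with alternative forms, the levels of both forms are given by diet where both rows could be read. COX6A2, the heart and skeletal muscle form, averaged 263 ± 113 CPM (SD) over the 6 control libraries, 346 ± 57.8 over the 6 UL libraries and 308 ± 43.4 over the 5 ULU libraries, and 221 CPM per kb over all libraries. COX6A1, the form of most other tissues, averaged 29.6, 25.7 and 23.4 CPM, but 84.9% of its exon bases are shared, so the ratio between the forms is uncertain. COX6A2 was also the member that varied most within control, at a coefficient of variation of 43.0%, from 160 CPM in control 24 to 429.5 CPM in control 21. COX4I2, the alternative form of COX4I1, averaged 3.27, 3.75 and 3.09 CPM, beside 75.6, 101 and 92.9 CPM of COX4I1. Of the exon bases of COX4I1, 57.0% are shared, so the ratio of this pair is uncertain too. NDUFA4L2, the alternative form of NDUFA4, averaged 8.34, 8.45 and 7.77 CPM, beside 961, 1095 and 873 CPM of NDUFA4. COX7A2, the partner of the unreadable COX7A1, averaged 102, 116 and 97.6 CPM. None of these differed between diets at an adjusted p under 0.05.

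The members varied less within a diet than genes in general. The median coefficient of variation over the 49 members was 18.5% in control, 13.6% in UL and 12.5% in ULU, beside 24.4%, 21.7% and 22.8% over all genes tested, which include many lower genes. The control libraries spread most, since the median member lay between -0.30 (control 22) and 0.31 (control 25) from its control mean on the log2 scale, while the UL libraries lay between 0.05 and 0.33 and the ULU libraries between 0.13 and 0.43.

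The mtDNA-encoded subunits, which share complexes with the members, had mostly estimates below 0 against control. All 13 were tested and none passed in any comparison. In ULU vs control 11 of 13 estimates were below 0 with a median of -0.31, and in UL vs control 12 of 13 with a median of -0.35. Their summed level was 111003 ± 16522 CPM (SD) over 6 control libraries, 85152 ± 14641 over 6 UL libraries and 91742 ± 20876 over 5 ULU libraries, and the diets overlapped. Per library, the sum of the mtDNA-encoded subunits was 6.43 ± 0.670 (SD) times that of the members in control, from 5.41 to 7.38, and 4.49 ± 0.824 times in ULU, from 3.31 to 5.57. In UL it lay between 3.20 and 5.69 times. Control 24 held 25893 CPM of COX1, the catalytic subunit of complex IV, against a control median of 5862 CPM, and without COX1 the sums were 101338, 80710 and 87288 CPM. ATP8, a small subunit of complex V, had 0.566 CPM in UL 27 and 0.437 CPM in ULU 40, against 911 to 1528 CPM in the other libraries. UL 27 and ULU 40 also had the lowest shares of reads on the mitochondrial chromosome, 8.64% and 8.0%. Their sums of mtDNA-encoded subunits were the lowest relative to the members, 3.20 and 3.31 times. Whether these values are linked was not tested. The share of all counted reads on the mitochondrial chromosome reached 15.9% in control and ran from 8.64 to 14.8% in UL and from 8.0 to 11.6% in ULU, and every control library lay above every ULU library.

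**Figure D4:**
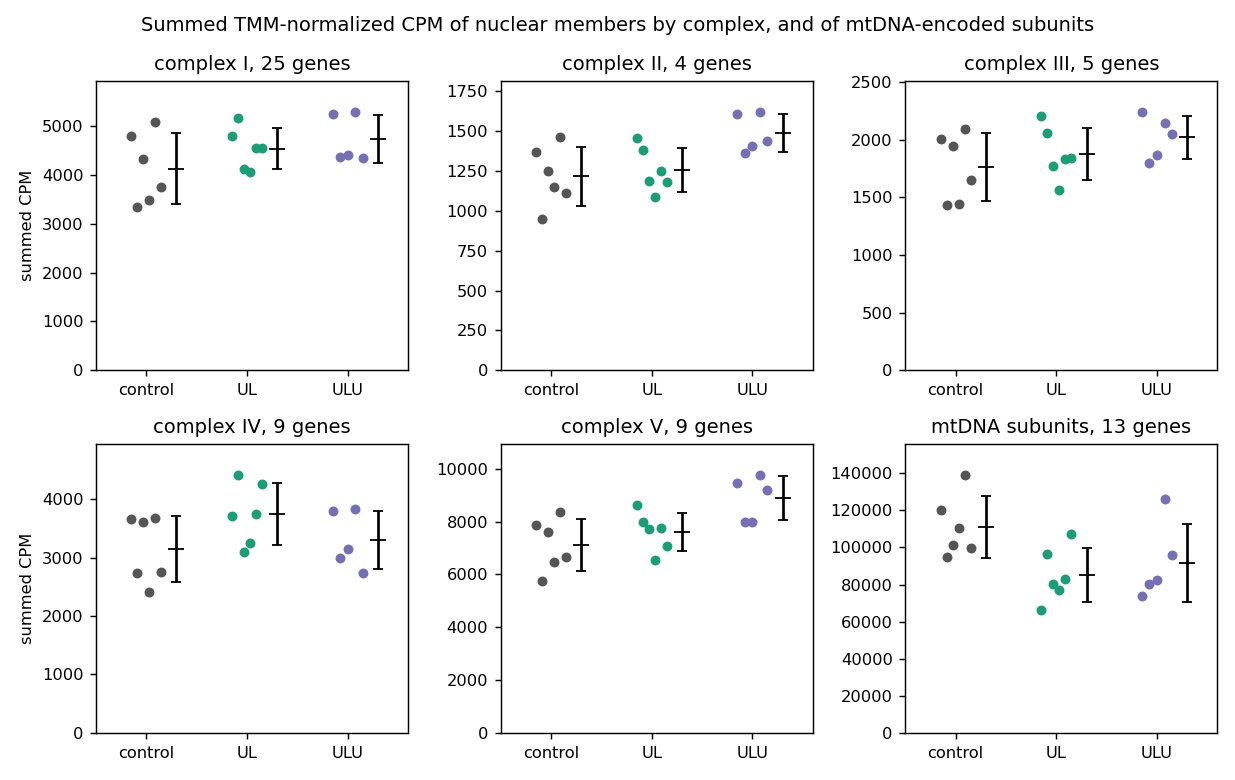
Summed TMM-normalized CPM of the members of each complex and of the 13 mtDNA-encoded subunits, with a point for each library and the mean ± SD beside each diet's points, on axes that start at 0. Complexes I, II, III and V have their highest mean in ULU, complex IV in UL, and the mtDNA-encoded subunits in control, with overlap between diets in every panel.

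Of 23 other nuclear subunits that were tested, 0 passed in any comparison. At an unadjusted p under 0.05 there were 15 in UL vs control, all higher in UL, beside 1541 of all 14203 genes, 829 of them higher. In ULU vs control there were 5, of which 4 were higher, beside 2678 of all genes, 1431 of them higher. Their median log2(fold change) was 0.35 in UL vs control, with 21 of 23 above 0, 0.17 in ULU vs control, with 19 above 0, and -0.15 in ULU vs UL, with 21 of 23 below 0. Among 39 tested assembly factors, which build the complexes without being part of them, 3 passed in ULU vs control and all were higher in ULU. Of all genes tested, 2.98% passed in that comparison, and 1.99% passed and were higher in ULU. TACO1, an activator of COX1 translation, had a log2(fold change) of 0.51 ± 0.10 (SE) and an adjusted p of 0.0139, at 31.5 ± 2.42 CPM (SD, n = 5) in ULU and 22.1 ± 2.38 CPM (SD, n = 6) in control. UQCC3, a complex III factor, had 0.51 ± 0.13 (SE) and an adjusted p of 0.0406, and NDUFAF8, a complex I factor, 0.83 ± 0.21 (SE) and an adjusted p of 0.0406. Among 13 tested carriers and partners of the chain, ETFDH, which passes electrons from fatty acid oxidation to ubiquinone, rose by 0.42 ± 0.11 (SE) on the log2 scale, with an adjusted p of 0.0495. COQ10B, a ubiquinone-binding protein, fell by 0.62 ± 0.12 (SE), with an adjusted p of 0.0133, from 29.3 ± 3.89 CPM (SD, n = 6) in control to between 17.95 and 19.89 CPM in the 5 ULU libraries. TACO1 and COQ10B passed in all 17 fits that left out a library, UQCC3 in 8, NDUFAF8 in 6 and ETFDH in 3. In UL vs control and ULU vs UL none of these passed.

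Contractile genes were read beside the members. In ULU vs control 2 of 7 slow fibre genes and 4 of 8 fast fibre genes passed, all higher in ULU, with medians of 0.72 and 0.57 on the log2 scale. Of all genes tested, 1.99% passed and were higher in ULU. The summed slow fibre level was 3407 to 7585 CPM in control, 5551 to 10660 in UL and 5889 to 12914 in ULU. The summed fast fibre level was 25007 to 47029 CPM in control, 38018 to 51292 in UL and 42680 to 62379 in ULU. By library, ULU 40 to 44 had member medians of 0.39, 0.13, 0.14, 0.43 and 0.15 on the log2 scale from the control mean. Their slow fibre sums were 10027, 12914, 6349, 5889 and 7202 CPM, and their fast fibre sums 55089, 52663, 42680, 62379 and 46443 CPM. The slow fibre sums were 4753, 6264 and 7585 CPM in control 21, 23 and 25, against 4207, 3426 and 3407 CPM in control 22, 24 and 26. MYH7, MYH1, MYH2 and MYH4 had no row of their own. Of 4 cardiac muscle genes with a row, the row named MYH6, which also spans MYH7, passed and was higher in ULU, and the list summed to 698 to 1196 CPM in control, 1085 to 2559 in UL and 1408 to 2755 in ULU. Adipocyte markers, none of which passed, summed to 204 to 988 CPM in control, 197 to 412 in UL and 160 to 354 in ULU. No list had a marker without reads in every library, and no gene of the endothelial, fibroblast, leukocyte, erythroid and smooth muscle lists passed, with sums that overlapped between the diets. The part of fibre and cell content in the members' differences was not tested.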

How the data were processed

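Longissimus muscle RNA of 6 control, 6 UL and 5 ULU piglets was used, with groups taken from the labels. Per the labels and the study's methods, the authors used fastp for trimming and HISAT2 for alignment, and the deposited values are raw counts of reads for each gene. The file header names featureCounts 2.0.1 with Ensembl annotation 104 of Sscrofa11.1, where the submitters' processing notes name Subread 1.5.1 (and DESeq2 1.34.0 for the study's own test). No option for strand, for several placements or for overlapping genes stands in the header, so reads on bases shared by genes on either strand were counted for no gene. The deposited exon length per gene, a value of another kind, served for CPM per kb. All per-sample columns were used.

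The members and lists were chosen with earlier results of these data known. Rows were named by gene ID, or, for unnamed rows, by position when at least 0.5 of the unshared exon bases lay in the RefSeq gene (Sscrofa11.1) and at least 0.5 of that gene was covered, a rule revised after its matches were seen. Members named with values are those that passed, the smallest p per complex in ULU vs control and UL vs control, the highest and lowest CPM per kb per complex (over rows with at most 50% of exon bases shared), the isoform pairs and the members without a test.

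edgeR 4.0.16 in R 4.3.3 was run with TMM factors, its low-count filter by diet, which left 14203 genes, and its quasi-likelihood test in 1 model of 17 libraries, and SE was the absolute log2(fold change) divided by the square root of F. log2 CPM used a prior count of 2. Exact permutation tests of single members used mean log2 CPM and were not adjusted. Tables were made with pandas 2.3.3 in Python 3.11.15. The alternatives were DESeq2 1.42.0, the diets compared alone, RLE and upper quartile factors, library sizes without the mitochondrial chromosome, no filter, at least 10 reads in every library, the counted share of trimmed reads (trimmed totals from the study's supplementary material) as a covariate, a log2(fold change) limit of 1, and each library left out. The scripts were tested on simulated data. Depth was 16137365 to 26546810 counted reads, and p-values measure the spread between piglets.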

Additional observations from a re-analysis of the deposited data

Results flagged for a closer look

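In 75 groups of library values (named members and sums by diet), 2 single libraries lay far from the others of their diet by Dixon's test, a number below the 5% of groups that chance passes at this limit. NDUFB10 had 176.5 CPM in control 25, where the next control library had 116.6 CPM, and NDUFV1 had 49.74 CPM in UL 27, where the next UL library had 37.38 CPM.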

How the results depend on the processing

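The number of members that passed in ULU vs control, 4 with edgeR on all libraries, was 7 with DESeq2 on the 2 diets, 8 with DESeq2 on all libraries, 1 with edgeR on the 2 diets, 0 with the counted share as a covariate and 0 with the log2(fold change) limit of 1. Over all genes the number, 423 with edgeR on all libraries, was 854, 1057, 111, 6 and 59 under these settings. In UL vs control the number was 0, and 1 with DESeq2 on the 2 diets and 2 with DESeq2 on all libraries, where 162 and 173 of all genes passed. Leaving out 1 library gave 0 to 8 members in ULU vs control, 0 to 1 in UL vs control and 0 to 0 in ULU vs UL. The numbers over all genes in those fits are not given here, and the cause was not tested. The other factors and filters left the count within 1.5 times of 4. The median member log2(fold change) stayed between 0.17 and 0.28 in ULU vs control, 0.12 and 0.23 in UL vs control and 0.00 and 0.10 in ULU vs UL when 1 library was left out. With the counted share as a covariate the median was 0.15 in ULU vs control (0.22 without it), below that range. It was 0.19 in UL vs control (0.19 without it) and -0.01 in ULU vs UL (0.06 without it). The members that passed and those with the smallest p per complex kept their direction in that comparison under every alternative. Some estimates near 0 did not, such as NDUFA4 in ULU vs control, -0.14 and 0.01 with the covariate. The 0 members in UL vs control and ULU vs UL do not show that the members were alike. No paired analysis was possible because the diets share no replicate numbers.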

Other observations

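Split at the median annotated exon length of the 49 tested members (1582 bases), the 25 shorter members had 11 estimates above 0 and 14 below in ULU vs UL, with a median of -0.05 on the log2 scale, and the 24 longer members had 19 above and 5 below, with a median of 0.09. In UL vs control the medians were 0.20 and 0.13, and in ULU vs control 0.22 and 0.23. The split was chosen after the values were seen and was not tested.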
